A study of Mus musculus with 6 samples.

Results

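The liver and gut miRNAs followed here were 7 mature entries, taken by name from the deposited count table of 1281: miR-192-5p, miR-194-5p, miR-215-5p, miR-215-3p, miR-122-5p, miR-148a-3p and miR-148a-5p. All 7 were present, and all 7 were among the 153 miRNAs kept by the filter on low counts. Small RNA was sequenced from serum of male mice aged 10 to 12 weeks whose sciatic nerve gap had been bridged with a nerve graft from a Balb/c donor. The sample labels give C57BL/6 as the strain, while the surgical description names Balb/c recipients in one sentence, so the strain of the recipients is not settled by the labels. One arm received FK506 (tacrolimus, an inhibitor of calcineurin that blocks T cell activation) under the skin at 1 mg/kg per day, and the other arm received none. Every animal in both arms was grafted and anaesthetised, and no ungrafted serum was analysed here. Each arm was sampled at days 3, 7 and 14 with 3 animals per arm and day as stated, and each arm and day is 1 library. The sources used here do not say whether a library held 1 animal or a pool.

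A miRNA is cut from a hairpin precursor, and the strand kept in the silencing complex pairs with target mRNAs mainly through its seed, bases 2 to 8. The miR-192 family comprises miR-192 and miR-215, which share a seed and are made in clusters with the 2 copies of miR-194. Liver and intestinal epithelium both make miR-192 and miR-194, and miR-215 is known mainly from the intestine; both miR-192 and miR-215 respond to p53 in human cells. Hepatocytes make miR-122 in great excess over other cells, and its release into blood is a widely used sign of liver cell injury. Many tissues, liver among them, make miR-148a, which is also carried in vesicles.

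The mature sequences show which entries can be confused and which share targets. They are printed 5′ to 3′ from RefSeq (GRCm38.p6), with the seed in capitals, for the 6 of 7 entries matched by name and for the seed relatives of miR-148a-3p.
miR-192-5p: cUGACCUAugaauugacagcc
miR-215-5p: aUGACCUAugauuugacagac
miR-194-5p: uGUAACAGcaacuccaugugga
miR-215-3p: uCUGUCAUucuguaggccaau
miR-148a-3p: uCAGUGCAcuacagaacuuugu
miR-148b-3p: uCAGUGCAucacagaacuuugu
miR-152-3p: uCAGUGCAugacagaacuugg
miR-148a-5p: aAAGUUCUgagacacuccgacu
Read against miR-192-5p and counted from its 5′ end, miR-215-5p differs by C1A, A12U and C20A. Both are 21 nt long with 18 identical positions, and the longest stretch they share is 10 nt. A full-length read can therefore tell them apart, but the sources used here do not say how the authors counted short reads or reads matching both entries. The seed of miR-215-3p is shared with no other entry, and that of miR-148a-5p is shared with miR-148b-5p.

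The genes form 2 clusters. On chromosome 1, Mir194-1 (185313319 to 185313385, plus strand) lies 195 nt upstream of Mir215 (185313581 to 185313692). GENCODE M21 places both inside an intron of the protein-coding gene Iars2 on the opposite strand, and Mir215 overlaps an exon of the antisense RNA gene 2010103J01Rik. On chromosome 19, Mir194-2 (6264643 to 6264728, plus strand) lies 115 nt upstream of Mir192 (6264844 to 6264932), outside any other annotated gene. Mir148a lies alone on chromosome 6 (51269812 to 51269910, minus strand). Both copies of miR-194 give the same mature miR-194-5p, so its reads cannot be assigned to a cluster.

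The 6 libraries held 4897727 to 5806228 counts. The red cell miRNA miR-486-5p, together with miR-3107-5p, which shares its reads, took 93.8% to 98.0% of each library and left 103058 to 359061 reads for all others. Of those other reads the 7 liver and gut entries made up 3.33%, 1.66% and 4.92% at the successive days of the FK506 arm, and 1.93%, 0.769% and 4.52% in the untreated arm. Levels below are TMM-scaled CPM, read counts relative to a library size adjusted so that the trimmed mean of ratios over the 153 miRNAs is even. This adjustment is large for the FK506 day 14 library, with a factor of 2.08 against 0.697 to 1.06 in the others. A read spans a whole mature miRNA of 21 or 22 nt, so counts were not divided by length. Intervals are 95% counting intervals, and they do not cover differences between animals. With 1 library per arm and day, a difference at a single day has no replicate check and no p-value. In serum, more cells releasing a miRNA and more miRNA released per cell cannot be told apart.

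miR-192-5p was the most abundant of the 7 entries over the 6 libraries, ranked 18 of 1281 by summed reads, with miR-215-5p at rank 25. Its counts at days 3, 7 and 14 were 1256, 837 and 8363 with FK506 and 1627, 1666 and 5509 without, or 361, 223 and 692 CPM against 299, 322 and 1239 CPM. Both arms had their highest level at day 14, and the arms overlapped. miR-215-5p had 1757, 578 and 7034 reads with FK506 and 925, 251 and 818 without, or 505, 154 and 582 CPM against 170, 48.6 and 184 CPM. It was higher with FK506 on each day, but the arms overlapped, because the FK506 day 7 level lay below the untreated levels of days 3 and 14. The opposite strand miR-215-3p was far rarer, at 25, 35 and 189 reads with FK506 and 69, 10 and 31 without.

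The third product of these clusters, miR-194-5p, was at the edge of detection, with 5, 0 and 32 reads with FK506 and 9, 13 and 34 without. Its highest level was in untreated serum at day 14, at 7.65 CPM, the library that also held the most miR-192-5p per scaled read. The hepatocyte miRNA miR-122-5p had 30, 26 and 1 reads with FK506 and 5, 0 and 60 without. Its order reversed between days: the FK506 libraries held more at days 3 and 7 and the untreated library more at day 14. A count of 0 allows up to 3 reads, which is 0.799 CPM of miR-194-5p in the FK506 day 7 library and 0.580 CPM of miR-122-5p in the untreated day 7 library.

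miR-148a-3p varied least among the 3 members with at least 50 reads in every library. Its counts were 400, 229 and 1995 with FK506 and 449, 344 and 661 without, or 115, 61.0 and 165 CPM against 82.5, 66.6 and 149 CPM. The highest level was 2.71 times the lowest, against 5.56 times for miR-192-5p and 12.0 times for miR-215-5p. In both arms it was lowest at day 7 and highest at day 14. Its opposite strand miR-148a-5p had 6, 7 and 53 reads with FK506 and 14, 10 and 53 without. None of the 7 members separated the arms in scaled CPM (0 of 7), while of the 153 miRNAs tested 10.5% were higher and 13.1% lower in all FK506 libraries than in all untreated ones.

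**Figure D1:**
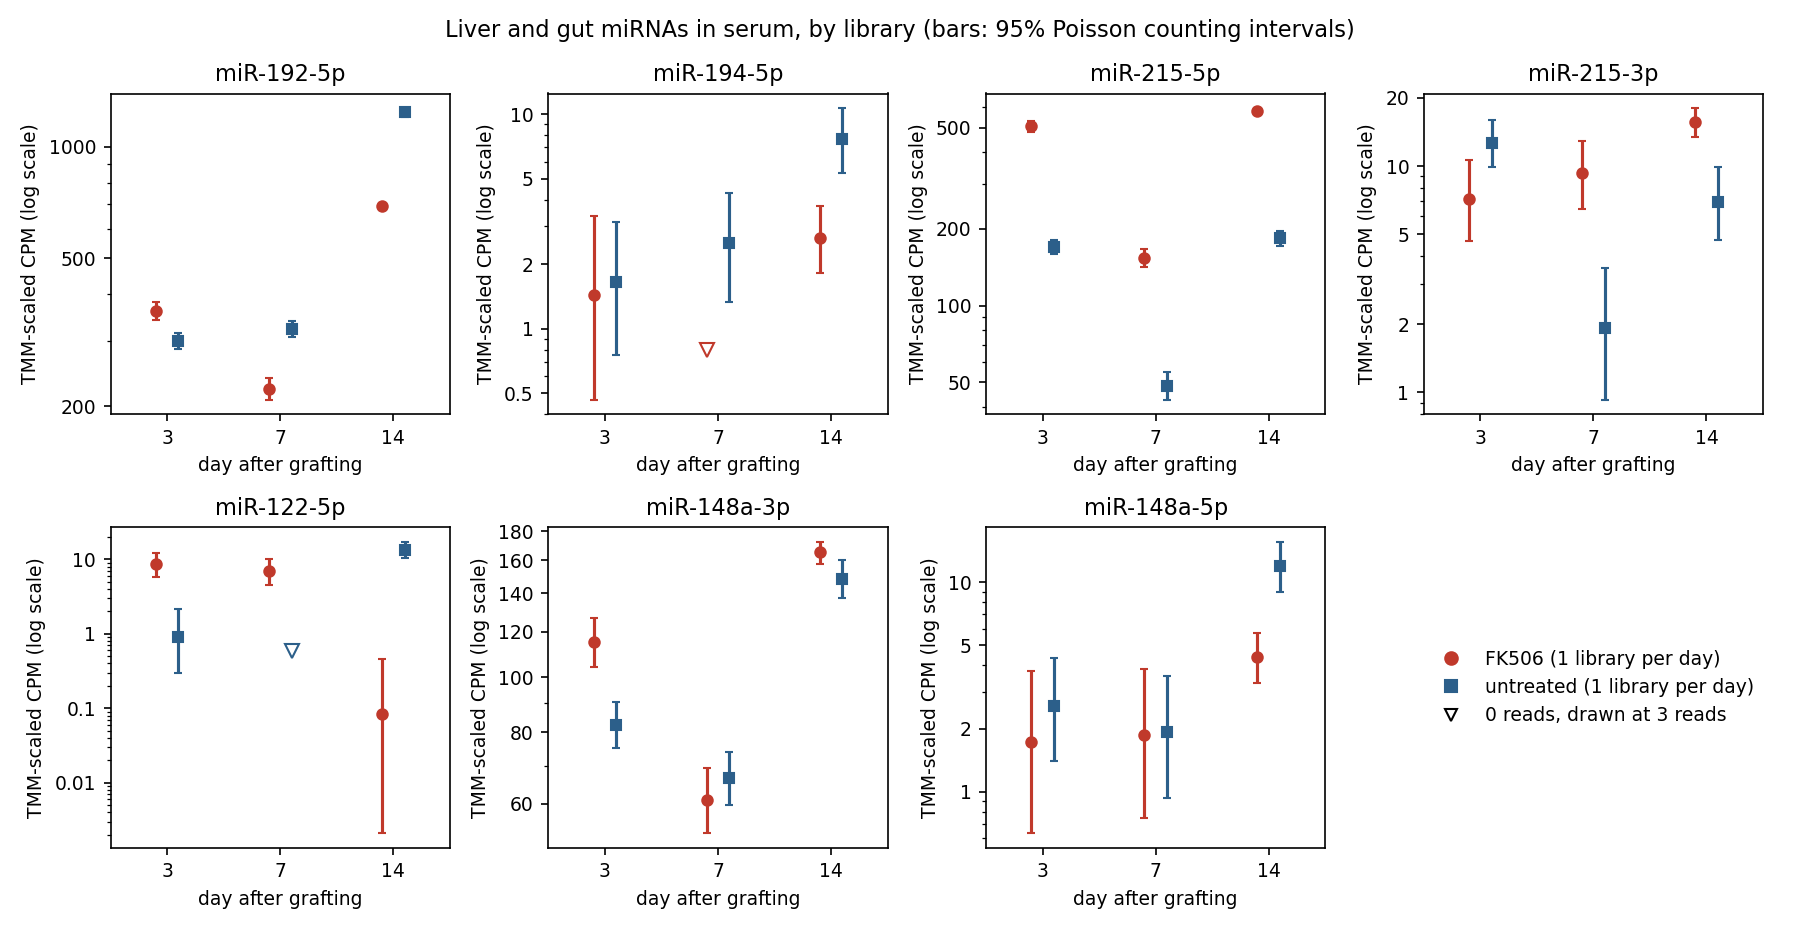
TMM-scaled CPM of each member on a log axis at days 3, 7 and 14, 1 point per library with its 95% Poisson counting interval; an open triangle marks 0 reads, drawn at 3 reads. The miR-215-5p points are higher with FK506 at each day, and the miR-122-5p points change order between day 7 and day 14.

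FK506 and untreated serum were compared at each day to ask which of these miRNAs differed with immunosuppression. A miRNA passed the size rule with at least 50 reads in 1 of the 2 libraries and a log2 ratio (prior count 2) that reached 1 in either direction. miR-215-5p was the one member past it at all 3 days with TMM scaling, at 2.97-fold higher with FK506 on day 3 (2.74 to 3.22), 3.17-fold on day 7 (2.73 to 3.69) and 3.16-fold on day 14 (2.94 to 3.41). Scaled to the library total, its log2 ratios were 0.97, 1.14 and 2.99, so day 3 fell just short of the rule, and there the opposite strand miR-215-3p passed it as lower, at -1.36. On day 3 it was 1 of 4 members compared, where 21.2% of all 99 miRNAs compared were higher and 11.1% lower (32.3% together). On day 7 it was 1 of 3, where 19.4% of 129 were higher and 46.5% lower (65.9% together). miR-122-5p, with under 50 reads, was 9.39-fold higher on day 3 (3.61 to 31.0). On day 7, with 26 reads against 0, it was 11.9-fold higher against a floor of 3 reads.

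On day 14, 6 of the 7 members could be compared, with 2 higher and 2 lower, while 20.8% of all 130 miRNAs compared were higher and 15.4% lower (36.2% together). The opposite strand miR-215-3p was higher with FK506 as well, by 2.24-fold (1.53 to 3.40). On day 3 its log2 ratio had the other sign, at -0.79 on 25 reads against 69. miR-148a-5p was 2.72-fold lower (1.82 to 4.05), but its counts were equal at 53 and 53, and scaled to the library total its log2 ratio was -0.11. miR-122-5p had 1 read against 60, a ratio of 163 lower with a counting interval of 28.2 to 6545. Of these, miR-122-5p and miR-215-3p reached 50 reads only through the library in which they were high. The median log2 ratio of the members compared was 0.37, -0.13 and -0.34 at days 3, 7 and 14, against 0.04, -0.74 and 0.01 over all miRNAs compared. At days 3 and 14 it includes members that reached 50 reads only through the library in which they were high, so nothing is read from it there.

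With TMM scaling, miR-192-5p and miR-148a-3p did not pass the rule at any day, but scaled to the library total miR-192-5p passed it as lower on day 7 and miR-148a-3p as higher on day 14. For miR-192-5p the log2 ratios of FK506 to untreated were 0.27, -0.53 and -0.84 with TMM scaling, -0.33, -1.04 and 0.49 scaled to the library total, and 0.24, 0.54 and -0.58 scaled to the reads outside miR-486-5p and miR-3107-5p. No direction can be given for it at any day. For miR-148a-3p the corresponding log2 ratios were 0.48, -0.13 and 0.15, then -0.12, -0.64 and 1.47, then 0.45, 0.94 and 0.41, again with a sign that depends on the scaling at days 3 and 7. The median over all miRNAs compared itself moved by -0.58, -0.51 and 1.31 between TMM and library-total scaling.

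**Figure D2:**
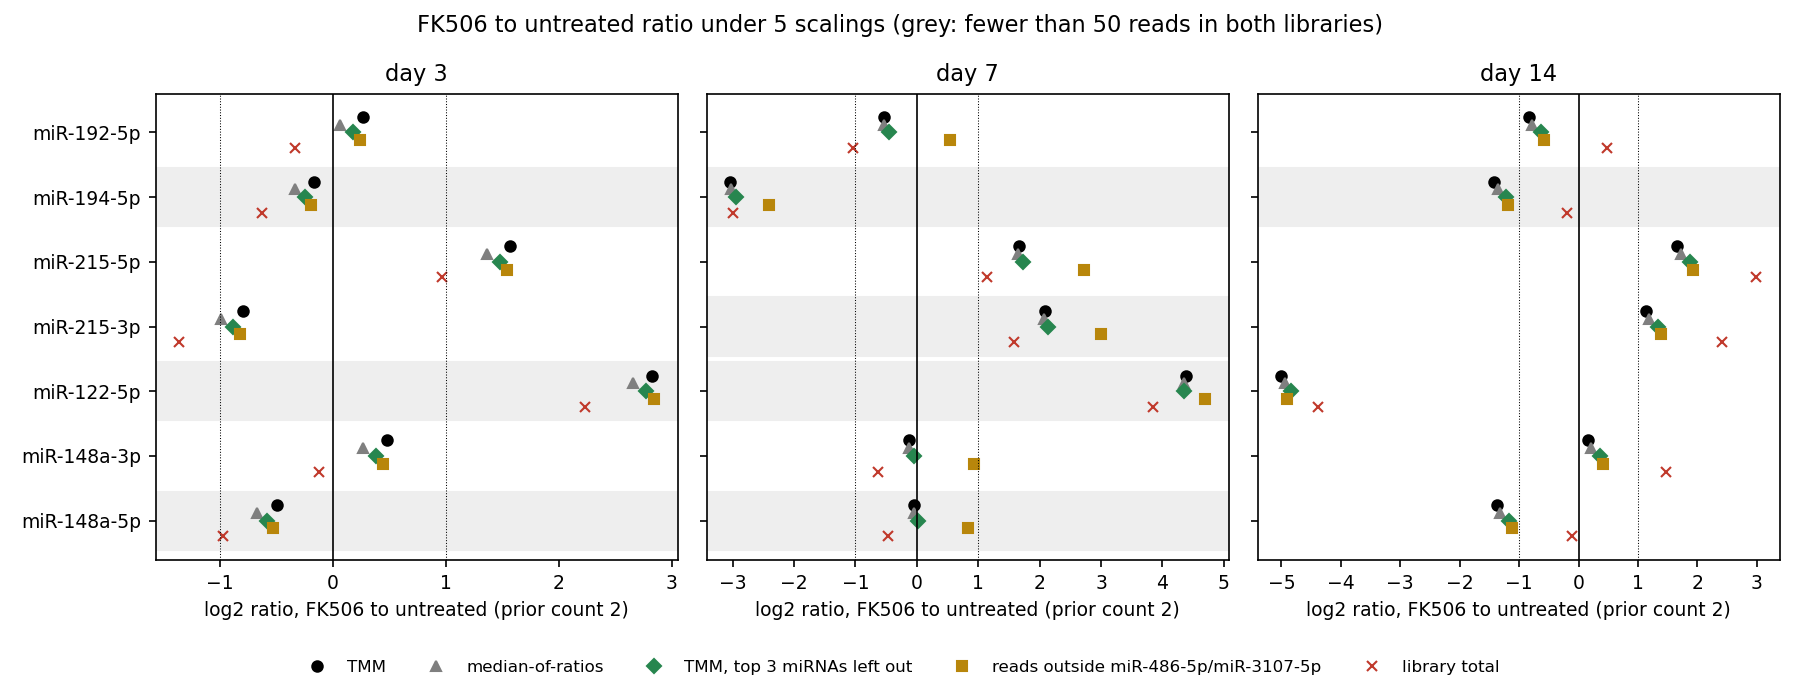
Log2 ratio of FK506 to untreated for the 7 members at each day under 5 scalings; dotted lines mark -1 and 1, and grey rows had fewer than 50 reads in both libraries. The miR-215-5p points lie to the right of 0 at all 3 days under all 5 scalings, and the miR-192-5p points lie on both sides.

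A joint model of the 6 libraries, with terms for day and treatment, was then tested by quasi-likelihood in edgeR. There 0 of 153 miRNAs passed a Benjamini-Hochberg adjusted p of 0.05 for treatment, or 0% of those tested, and 17, or 11.1%, had an unadjusted p under 0.05. DESeq2 called 5 and limma 1, and no member was among them. The log2 change of miR-215-5p with FK506 was 1.63 ± 0.607 (SE), higher in 3 of 3 pairs, with an unadjusted p of 0.0185 and an adjusted p of 0.314. Over 15 alternative fits its log2 change stayed between 1.52 and 1.87, and its adjusted p ran from 0.0859 to 0.940. For miR-192-5p the log2 change was -0.37 ± 0.621 (SE; adjusted p 0.894 in edgeR) and for miR-148a-3p 0.17 ± 0.590 (adjusted p 0.968). For miR-122-5p it was 1.92 ± 2.19 (adjusted p 0.806), with the opposite sign, -1.42, when the FK506 day 7 library was left out. The fit has 2 residual degrees of freedom per miRNA, and edgeR moderates the spread of each miRNA towards that of all 153. The SE and p of a member therefore rest in part on the spread of other miRNAs. This spread is how much the arms' difference varied between days in single libraries, part of which may be technical.

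The ratio of 2 counts from the same library does not depend on how libraries are scaled, so the seed relatives miR-192-5p and miR-215-5p were compared with each other. In FK506 serum there were 0.715 reads of miR-192-5p for each read of miR-215-5p on day 3 (0.664 to 0.769), 1.45 on day 7 (1.30 to 1.61) and 1.19 on day 14 (1.15 to 1.23). In untreated serum there were 1.76 (1.62 to 1.91), 6.64 (5.81 to 7.61) and 6.73 (6.26 to 7.26). The highest FK506 ratio lay below the lowest untreated one, and no counting intervals overlapped between the arms. In FK506 day 3 serum, miR-215-5p exceeded miR-192-5p, and in the other 5 libraries miR-192-5p was the more abundant.

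The mean log2 ratio was 0.10 ± 0.525 (SD, n = 3) with FK506 and 2.10 ± 1.11 (SD, n = 3) without, a difference of -1.999, or a 3.998-fold lower ratio with FK506. In an exact permutation test over the 6 libraries, two-sided, p was 0.10, the smallest that 3 against 3 can give, and 0.30 after adjustment over the 6 ratios computed. The difference by day was -1.30, -2.20 and -2.50 on the log2 scale. With both strands of each precursor summed it was -1.98. Of the 73 other miRNAs with at least 50 reads in every library, the ratio of miR-192-5p to the miRNA separated the arms, lower with FK506, for 3, or 4.11%, and higher for 0%. These were the lymphocyte miRNA miR-150-5p, the blood cell miRNA miR-142-5p and miR-215-5p. Since miR-215-5p was already known from these data to be higher with FK506, this ratio is not independent support for that difference.

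**Figure D3:**
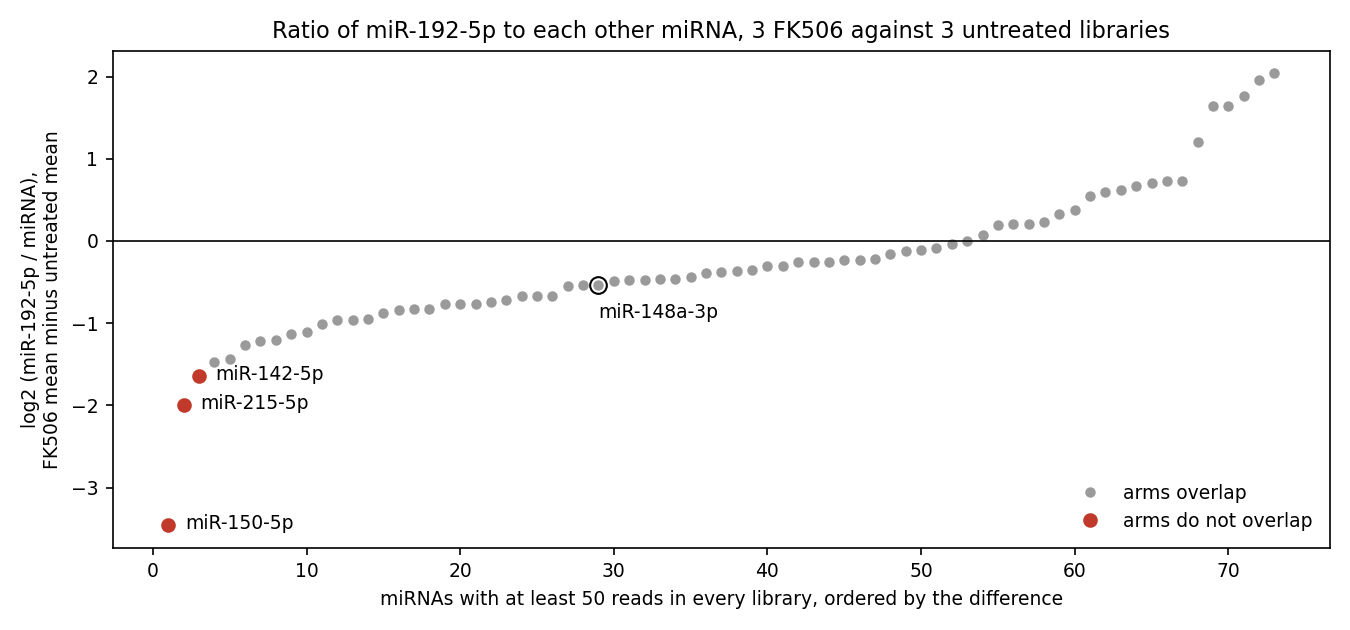
Difference between the FK506 and untreated means of log2 (miR-192-5p / miRNA) for the 73 other miRNAs with at least 50 reads in every library, in order; red points are those for which the arms do not overlap. miR-215-5p, at -1.999, stands in order after miR-150-5p, and miR-148a-3p lies among the overlapping ones.

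Among the leukocyte markers, miR-150-5p, miR-142-5p and, on few reads, miR-223-3p were higher in every FK506 library than in every untreated one. This held for 10.5% of all 153 miRNAs. miR-142-3p overlapped between arms, at 5.46, 3.73 and 8.03 CPM with FK506 and 5.51, 3.29 and 1.35 CPM without. The 4 leukocyte entries on the marker list summed to 1836, 1296 and 1114 CPM with FK506 and 300, 168 and 293 CPM without. Of these sums, miR-150-5p made up 1590, 1045 and 749 CPM with FK506 and 174, 82.4 and 140 CPM without. On the size rule 1 of 2 compared was higher at day 3, 2 of 2 at day 7 and 4 of 4 at day 14, led by miR-150-5p, beside 21.2%, 19.4% and 20.8% of all miRNAs compared. At day 14, miR-142-3p (97 reads against 6) and miR-223-3p (67 against 6) reached 50 reads only through the FK506 library. Red cell markers (miR-16-5p, miR-451a, miR-144-5p and miR-144-3p) summed to 991, 970 and 1725 CPM with FK506 and 1125, 526 and 1362 CPM without, overlapping between arms. The sum leaves out miR-486-5p, which was at 703826, 661576 and 225733 CPM with FK506 and 458440, 445531 and 585557 CPM without. That miRNA was higher with FK506 at days 3 and 7 and lower at day 14, so its order differed from that of the sum at days 3 and 14. Of the summed red cell markers, 1 of 4 was higher at day 3 (miR-144-3p) and 1 of 3 at day 7 (miR-451a). At day 14, 1 of 4 was lower (miR-144-5p), where 15.4% of all were. At day 3, miR-144-3p (69 reads against 43) reached 50 reads only through the FK506 library, so it could not have passed as lower. The part of leukocyte or red cell RNA in the miR-215-5p difference was not tested.

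The untreated day 7 library stands apart: it held 10027 reads of 5 neuron and glia miRNAs, against 97 to 459 in each of the others. Among them miR-9-5p had 7683 reads there and 1 in all others together. On the size rule 5 of 5 such miRNAs were lower with FK506 at day 7, beside 46.5% of all 129 compared. Of these, 4 had 0 reads in the FK506 library and reached 50 reads only through the untreated one, so nothing is read from the count. At day 3, 1 of 1 was higher (21.2% of all), and 0 of 1 passed at day 14 (36.2% of all in either direction). Without that library the difference in the ratio of miR-192-5p to miR-215-5p was -1.68, and the log2 change of miR-215-5p was 1.61 with an adjusted p of 0.325 in edgeR.

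Liver-specific and liver-and-gut miRNAs were contrasted through the ratio of miR-122-5p to miR-192-5p. With FK506, miR-122-5p reads were 2.39% of miR-192-5p reads on day 3 (1.60% to 3.43%), 3.11% on day 7 (2.02% to 4.58%) and 0.0120% on day 14 (0.000303% to 0.0666%). Without FK506 they were 0.307% on day 3 (0.0997% to 0.719%), 0% on day 7 (up to 0.222%) and 1.09% on day 14 (0.830% to 1.40%). The FK506 share was higher on days 3 and 7 and lower on day 14, with no overlap of counting intervals at any of these days, so the arms as a whole overlap. With 0.5 added to each count, the log2 difference between arms was 1.21 (exact permutation p 0.60, adjusted 0.60, 3 against 3), and it was -0.24 without the untreated day 7 library.

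**Figure D4:**
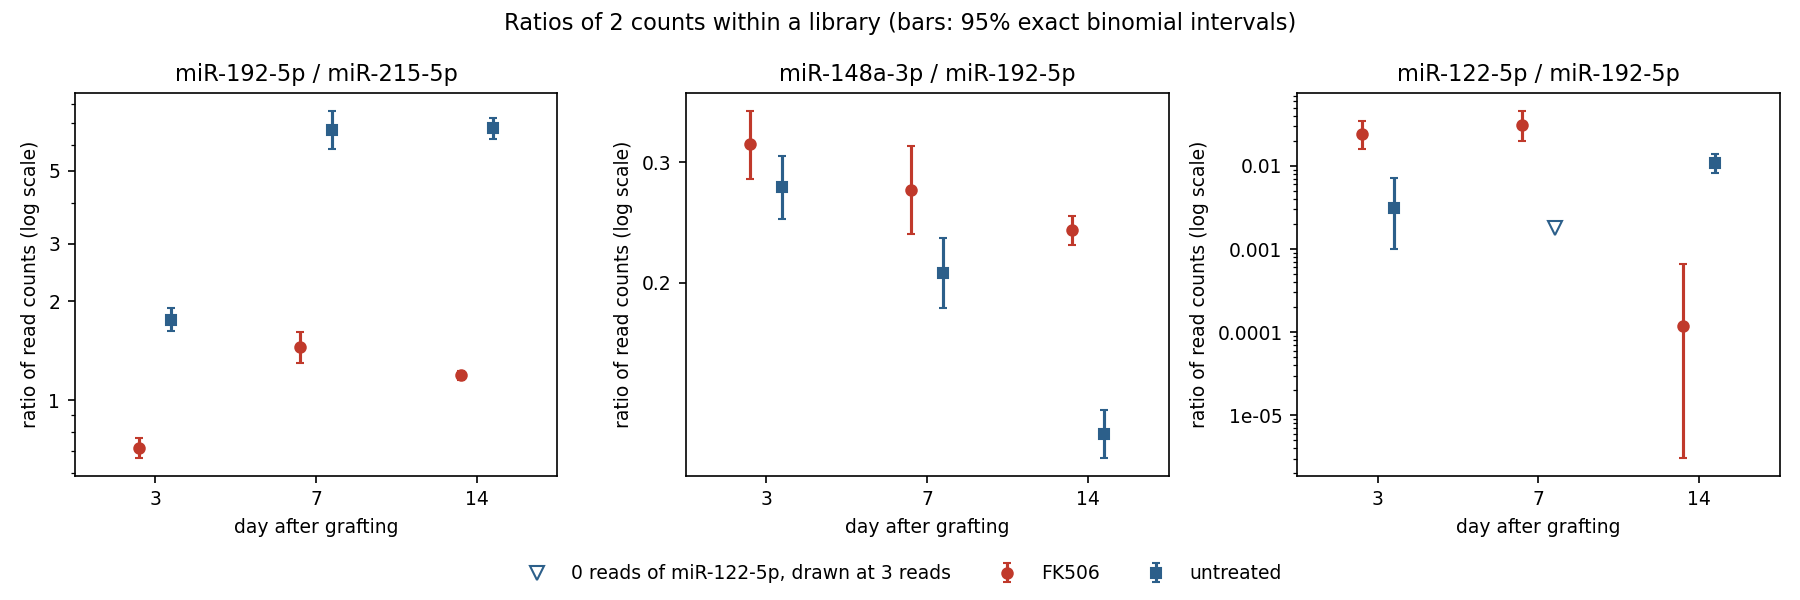
Ratio of read counts within each library, on log axes, with 95% exact binomial intervals; the open triangle marks 0 reads of miR-122-5p, drawn at 3 reads. The miR-192-5p to miR-215-5p ratio separates the arms, the miR-148a-3p to miR-192-5p ratio does not, and the miR-122-5p to miR-192-5p ratio changes order at day 14.

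The rarer strands were unevenly spread. In untreated day 14 serum, where miR-122-5p was highest, the opposite strand miR-122-3p had 7 reads and miR-194-2-3p, the product of the chromosome 19 cluster, had 8, and both were at 0 in the other 5 libraries. The chromosome 1 product miR-194-1-3p had 2 reads, both in FK506 day 3 serum, where miR-215-5p exceeded miR-192-5p. miR-192-3p had 0 reads in all 6 libraries. These counts are too few for a comparison.

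Relative to its cluster partner, miR-192-5p was counted 128 to 261 times as often as miR-194-5p in the 5 libraries where miR-194-5p had reads. By library the ratio was 251 (107 to 775) and 261 (185 to 382) with FK506 at days 3 and 14, and 181 (94.99 to 396), 128 (74.7 to 241) and 162 (116 to 234) without at days 3, 7 and 14. In the FK506 day 7 library, with 0 reads of miR-194-5p, the ratio was 279 against a floor of 3 reads. Its exact lower 95% limit was 226. With 0.5 added to each count the arms did not overlap, and the log2 difference was 1.62 (exact permutation p 0.10, adjusted 0.30). Without the FK506 day 7 library it was 0.69, and the intervals of the arms overlap at days 3 and 14. With both strands of each precursor summed, the log2 difference was 1.57 (exact permutation p 0.20), and the arms overlapped.

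miR-148a-3p was set against miR-192-5p as a broadly made miRNA against a liver and gut one. Its reads were 31.8%, 27.4% and 23.9% of those of miR-192-5p with FK506 at days 3, 7 and 14, and 27.6%, 20.6% and 12.0% without. In both arms the share was lower at each later day, and the arms overlapped. The log2 difference between arms was 0.53 (exact permutation p 0.30, adjusted 0.45), and 0.20 without the untreated day 14 library. Between strands, miR-148a-3p outnumbered miR-148a-5p by 66.7, 32.7 and 37.6 times with FK506 and by 32.1, 34.4 and 12.5 times without, a log2 difference of 0.86 (exact permutation p 0.20, adjusted 0.40), or 0.39 without the untreated day 14 library. For miR-215 the 5p strand outnumbered the 3p strand by 70.3, 16.5 and 37.2 times with FK506 and by 13.4, 25.1 and 26.4 times without, with overlapping arms and a log2 difference of 0.76 (exact permutation p 0.40, adjusted 0.48). That difference was 0.26 without the FK506 day 3 library, which held the highest ratio.

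The seed relatives miR-148b-3p and miR-152-3p, which could bind the same sites as miR-148a-3p, were scarce beside it. From position 1 of miR-148a-3p, miR-148b-3p differs by C9U and U10C. It had 19, 3 and 54 reads with FK506 and 25, 26 and 12 without, and was compared at day 14 only, with a log2 ratio of 0.66 that did not pass the rule. miR-152-3p had 8 reads over all libraries.

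Days were next compared within each arm. In untreated serum at day 14, miR-192-5p was 4.14-fold higher than at day 3 (3.92 to 4.38), miR-122-5p 14.7-fold (5.96 to 46.9) and miR-148a-5p 4.63-fold (2.53 to 9.04). With TMM scaling these 3 were higher among 6 members compared, and 0 lower, where 10.8% of all 102 miRNAs compared were higher and 6.86% lower (17.6% together). The count cannot be read against that share, since miR-122-5p (60 reads against 5) and miR-148a-5p (53 against 14) reached 50 reads only through the day 14 library. miR-215-3p, at -0.83 on the log2 scale, passed as lower under the other 4 scalings, at -1.05 to -1.16. In the same library miR-194-5p was 4.62-fold higher (2.17 to 11.0), on 34 reads against 9, too few reads for the size rule. miR-215-5p was at a fold of 1.08 (0.984 to 1.19).

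In FK506 serum at day 14, miR-192-5p was 1.92-fold higher than at day 3 (1.81 to 2.04), short of the rule, and miR-215-5p was at 1.15-fold (1.09 to 1.22). Past the rule were miR-215-3p at 2.18-fold (1.43 to 3.45) and miR-148a-5p at 2.54-fold (1.09 to 7.24), 2 of 5 compared, where 10.2% of all 128 miRNAs compared were higher and 16.4% lower (26.6% together). Both had reached 50 reads only through the day 14 library (189 against 25 reads, and 53 against 6), so they could not have passed as lower and nothing is read from the count. All 5 members compared passed with library-total scaling. miR-122-5p had 30 reads at day 3 and 1 at day 14, against 5 and 60 in untreated serum.

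Day 7 was the low point of miR-215-5p in both arms. It was 3.28-fold lower than at day 3 with FK506 (2.99 to 3.61) and 3.50-fold lower without (3.04 to 4.04), and in untreated serum miR-215-3p was 6.55-fold lower (3.36 to 14.3). With FK506 it was the 1 member of 3 past the rule, where 6.45% of 93 miRNAs compared were lower and 3.23% higher (9.68% together). Without FK506, 2 of 4 members were lower, where 14.1% of 128 were lower and 47.7% higher (61.7% together); of these, miR-215-3p reached 50 reads only through the day 3 library. miR-192-5p moved differently, at 1.62-fold lower with FK506 (1.48 to 1.77) and a fold of 1.08 without (1.01 to 1.16), the latter at -0.86 on the log2 scale when scaled to the reads outside miR-486-5p and miR-3107-5p. Leaving out the 3 most abundant miRNAs before scaling added miR-148a-3p to the lower ones with FK506, at -1.002 on the log2 scale.

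From day 7 to day 14, miR-192-5p, miR-215-5p and miR-148a-3p, the members with at least 50 reads in every library, were higher in both arms with TMM scaling. With FK506, miR-148a-5p was also past the rule, which made 4 of 5 members higher and 0 lower, where 19.7% of all 127 miRNAs compared were higher and 15% lower (34.6% together). Without FK506, 5 of 5 were higher, with miR-122-5p added at 60 reads against 0, at least 23.2-fold higher, and 0 lower, where 21.4% of all 131 were higher and 43.5% lower (64.9% together). These counts include miR-148a-5p (53 reads against 7 with FK506 and 10 without) and miR-122-5p, which reached 50 reads only through a day 14 library. With FK506, miR-122-5p had 26 reads at day 7 and 1 at day 14 and was not compared. Scaled to the library total, miR-148a-3p fell short of the rule in untreated serum, at 0.81.

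For changes with time over both arms, the edgeR fit called 0 of 153 miRNAs (0%) between days 3 and 7, days 3 and 14, or days 7 and 14. An unadjusted p under 0.05 was found for 7, 0 and 11 (4.58%, 0% and 7.19%). limma called 0 in each, and DESeq2 called 0, 0 and 1. For day 14 against day 7, miR-192-5p had a log2 change of 1.81 ± 0.774 (SE; unadjusted p 0.0362, edgeR adjusted p 0.572) and miR-215-5p of 1.92 ± 0.750 (SE; unadjusted p 0.0236, adjusted p 0.572). Both were higher in 2 of 2 arms. Between days 7 and 14 the TMM-scaled folds of miR-215-5p were nearly equal, at 3.78 with FK506 (3.48 to 4.13) and 3.79 without (3.28 to 4.38). That nearness depended on the scaling. As a share of the reads outside miR-486-5p and miR-3107-5p, miR-215-5p went from 0.561% to 1.96% with FK506. In untreated serum its share went from 0.0842% to 0.516%, a larger fold. For miR-122-5p the log2 change from day 7 to day 14 was 2.65 (edgeR adjusted p 0.836). It was 5.29 without the FK506 day 14 library and -5.77 without the untreated one, each leaving 1 library at day 14.

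Other miRNAs known from liver and from gut epithelium were read from lists. Of 14 further liver-related entries 4 reached 50 reads in any library: miR-22-3p, which is also abundant in blood cells, miR-101a-3p, miR-101b-3p and miR-99a-5p. With FK506, 0 of 3 compared passed the rule at day 3 and 0 of 4 at day 14. Of all miRNAs compared, 32.3% and 36.2% passed in either direction at those days. At day 7, 2 of 3 were lower, miR-101a-3p with 25 reads against 1089 and miR-99a-5p with 15 against 82, in the comparison with the library rich in neuronal miRNAs, where 46.5% of all miRNAs compared were lower. Both reached 50 reads only through that library. The median log2 ratio of the liver-related entries compared was 0.55, -1.90 and 0.45 at days 3, 7 and 14, beside 0.04, -0.74 and 0.01 over all miRNAs. At day 7 it includes the 2 entries that reached 50 reads only through the untreated library. At day 14 it includes miR-99a-5p, which reached 50 reads only through the FK506 library (71 reads against 17). Nothing is read from the medians at days 7 and 14. The hepatocyte-enriched miR-802-5p had 0 reads in all libraries.

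Of 9 gut epithelium entries 4 reached 50 reads in any library, led by miR-375-3p, a miRNA of endocrine and secretory cells, with 1704, 1221 and 2528 reads with FK506 and 1327, 1055 and 1303 without. Its fold of FK506 to untreated was 2.01 on day 3 (1.87 to 2.16), 1.59 on day 7 (1.47 to 1.73) and 0.714 on day 14 (0.668 to 0.764), so it passed the rule on day 3 only. Scaled to the library total, its log2 ratios were 0.40 and 0.84 on days 3 and 14, which ended the day 3 call and turned the day 14 direction. The epithelial miR-429-3p passed on day 14, with 54 reads against 0, 6.625-fold higher against a floor of 3 reads. Of the list, 1 of 1 compared was higher at day 3, 0 of 1 at day 7 and 1 of 4 at day 14, beside 21.2%, 19.4% and 20.8% of all. Of the 4, all but miR-375-3p reached 50 reads only through the FK506 library. At days 3 and 7 the log2 ratios, 1.01 and 0.67, were those of miR-375-3p alone. The day 14 median of 0.66 includes the entries that reached 50 reads only through the FK506 library, so nothing is read from it. miR-203-3p and miR-141-3p had at most 64 and 57 reads.

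Likeness of pattern was measured by Pearson's r of log2 scaled CPM over the 6 libraries, which share scaling factors and depth, and is given as a description. The entries most like miR-192-5p were miR-148a-5p (r 0.94), miR-15a-5p (0.88) and miR-148a-3p (0.86). miR-194-5p stood at 0.83, miR-215-5p at 0.31 and miR-122-5p at 0.17. miR-148a-5p, miR-194-5p and miR-122-5p fell to 6, 0 and 0 reads in a library, so their values depend in part on the prior count. Most like miR-215-5p were miR-106b-5p (0.97, on as few as 11 reads in a library), miR-101b-3p (0.94) and miR-451a (0.88). Its own opposite strand was at 0.75, on as few as 10 reads. For miR-148a-3p they were miR-182-5p (0.92), miR-192-5p (0.86) and miR-21a-5p (0.85).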

How the data were processed

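Small RNA of mouse serum was measured in 6 libraries, 1 per arm and day. The deposited values are raw read counts per mature miRNA; reads of 15 to 29 nt, freed of linkers, were matched to miRBase 20 with BLAST and Bowtie per the labels' protocols, and the submitters' processing notes list Bowtie too. The sources used here do not give versions, genome build or the handling of multiple matches. From these counts, filterByExpr (minimum count 10) kept 153 miRNAs, and TMM factors and quasi-likelihood tests came from edgeR 4.0.16 in R 4.3.3, with DESeq2 1.42.0 and limma 3.58.1 as alternatives. Log2 ratios used a prior count of 2, and folds are ratios of scaled counts with exact 95% binomial intervals. Floors are 3 reads. Ratios within a library were tested by exact permutation (SciPy 1.17.1). Without molecular identifiers, intervals and floors cover counting error alone. Other scalings, filters and read minimums and each library left out were tried.

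Named entries are the 7 members, the at most 3 highest-count entries of each marker list, list entries past the size rule, and the 3 entries most like each deep member. The rarer strands, miR-802-5p and the members of the ratio comparison were named after their values were seen. The members and lists were chosen with earlier results of these data known.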

Additional observations from a re-analysis of the deposited data

Results flagged for a closer look

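Among the members, 3 had log2 ratios whose counting intervals lay on opposite sides of no difference in different days or arms, and in none of them was the difference tested. For miR-122-5p, the log2 ratio of FK506 to untreated was 2.82, 4.38 and -5.00 at days 3, 7 and 14. Its log2 ratio of day 14 to day 3 was -4.38 with FK506 and 3.45 without, and of day 14 to day 7 it was -4.07 and 5.31. These values rest on 30, 26 and 1 reads with FK506 and 5, 0 and 60 without, so those against the untreated day 7 library depend on the prior count.

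For miR-215-3p, the log2 ratio of FK506 to untreated was -0.79, 2.08 and 1.13 at days 3, 7 and 14, and that of day 14 to day 3 was 1.09 with FK506 and -0.83 without. For miR-192-5p, the log2 ratio of FK506 to untreated was 0.27, -0.53 and -0.84, and that of day 7 to day 3 was -0.70 with FK506 and 0.11 without. The miR-192-5p values between arms change sign with the scaling. At day 3 the value was -0.33 and at day 14 0.49 when scaled to the library total. The untreated value of day 7 to day 3 also turned negative when scaled to the reads outside miR-486-5p and miR-3107-5p.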

How the results depend on the processing

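With edgeR 0 miRNAs were called for treatment across days, but 5 with DESeq2, 1 with limma, 2 with no day term, 4 with no filter and 4 without both day 14 libraries, the last chosen after seeing the data; leaving out single libraries gave 0 to 3. For day 7 against day 3 the count was 9 with no filter, and for day 14 against day 7 it was 1 with DESeq2, 6 with no filter and 0 to 5 without single libraries. The cause was not tested. No paired analysis by replicate number was possible because the labels give no replicate numbers; the day term pairs the arms, and without it the count was 2.

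Members past the size rule numbered 2 in place of 1 at day 3 and 3 in place of 1 at day 7 with a minimum of 20 reads, and 2 with library-total scaling at day 7. For day 7 against day 3 with FK506 they numbered 2 in place of 1 with the top 3 left out, and for day 14 against day 3 with FK506 5 in place of 2 scaled to the library total. Counts moved by 1 member for FK506 against untreated at day 14 (5 in place of 4 with 20 reads), for day 7 against day 3 without FK506 (3 in place of 2 scaled to the reads outside miR-486-5p and miR-3107-5p) and for day 14 against day 3 without FK506 (4 in place of 3 with 20 reads and under all 4 other scalings).

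The log2 difference of the ratio of miR-122-5p to miR-192-5p ran from -0.24 to 3.63 without single libraries, changing sign at -0.10 without FK506 day 7 and -0.24 without untreated day 7. The log2 change of miR-122-5p across days ran from -1.42 to 4.37 without single libraries, and it turned negative at -0.53 and -1.42 without FK506 days 3 and 7, at -0.60 and -1.38 without untreated days 3 and 7, and at -0.55 and -1.42 without both day 3 or both day 7 libraries. The differences of the other planned ratios kept their sign without single libraries: -2.64 to -1.67 for miR-192-5p to miR-215-5p, 0.69 to 2.13 for miR-192-5p to miR-194-5p, and 0.20 to 0.80 for miR-148a-3p to miR-192-5p. Depth limits miR-194-5p, miR-122-5p and miR-148a-5p, with at most 60 reads in a library.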
